A study of Gallus gallus with 8 samples.

Results

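The genes described here peak in the embryonic day (E) 16 chicken retina, that is, their transcripts were scarcer both before, at E8, and after, at E18. They were found among rows of a normalized count table that carry a gene name. A gene was a member when its E16 retina mean was at least 100 normalized counts and at least 2 times both the E8 and the E18 retina mean. Both E16 libraries also had to lie above all E8 and E18 retina libraries. Of 12732 named rows, 56 met this rule (0.440%), as did 22 rows without a gene name, which are not described. The members were thus chosen by their measured values in the 6 retina libraries. The height of the E16 peak is therefore given as a description with no test, and only the cornea supplied values that the rule did not use.

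The retina is built from one pool of dividing precursors, which give rise to photoreceptors, to bipolar, amacrine, horizontal and ganglion neurons, and to Müller glia. In the chick embryo the dividing phase is over well before hatching, and the last days in the egg are when neurons complete their wiring and photoreceptors grow their outer segments. A transcript that is abundant only in between can belong to a passing stage of a differentiating cell, or to a cell type that is present for a limited time. In RNA from a whole tissue, fewer cells of a type and less RNA per cell cannot be told apart.

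Sequencing covered whole retina of 3 ages (E8, E16 and E18) and whole cornea of E18 embryos, with 2 libraries per group and 8 in all. The embryos were untreated Cobb/Hubbard F1 hybrids, a commercial broiler cross, with no genetic change in any group, and the retinal pigment epithelium was peeled off each retina before lysis. The libraries were made in biological duplicate, and the labels used here give neither the sex of the embryos nor any pooling. A normalized count is the number of reads on a gene divided by 1 size factor for the library. It is not corrected for gene length, so levels are compared between libraries and not between genes. In each pair of values, replicate 1 comes first.

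The libraries held 15662779 to 45670254 reads on genes. In the paper's read statistics, both E16 retina libraries had a lower percentage of uniquely mapped reads than every E8 and E18 retina library. Among the retina libraries, mapping rate thus cannot be told apart from being of age E16. Its part in the E16 peaks was not tested. The tissue labels were checked on marker lists with limma, a linear model fitted over the 13194 genes that passed a filter on low counts (Benjamini-Hochberg adjusted p under 0.05). All 19 tested photoreceptor genes and all 13 bipolar cell genes were called lower in cornea than in E18 retina, compared with 34.5% of all genes. All 10 corneal epithelium and all 9 corneal stroma genes were called higher in cornea, compared with 36.9% of all genes. All 56 members passed the filter.

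Across the members, the E16 mean ran from 103 to 12019.7 normalized counts with a median of 446. The E16 mean was 2.01 to 385 times the E8 mean (median 4.44) and 2.01 to 37.3 times the E18 mean (median 2.55). The upper ends are imprecise, since 385 (ADM) rests on 1 read at E8 and 37.3 (FGG) on 10 reads at E18. In 17 members the E16 mean was at least 10 times the E8 mean, while in 42 members it was under 3 times the E18 mean. Only 11 members had an E16 mean at least 3 times that of both other ages. The reverse pattern was met by 57 named rows. It asked for both E16 libraries below all other retina libraries and an E16 mean at most 50% of the E8 and E18 means. Those means each had to be at least 100, whereas the peak rule set this level on E16 alone. The counts of 56 and 57 are thus not matched.

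**Figure D1:**
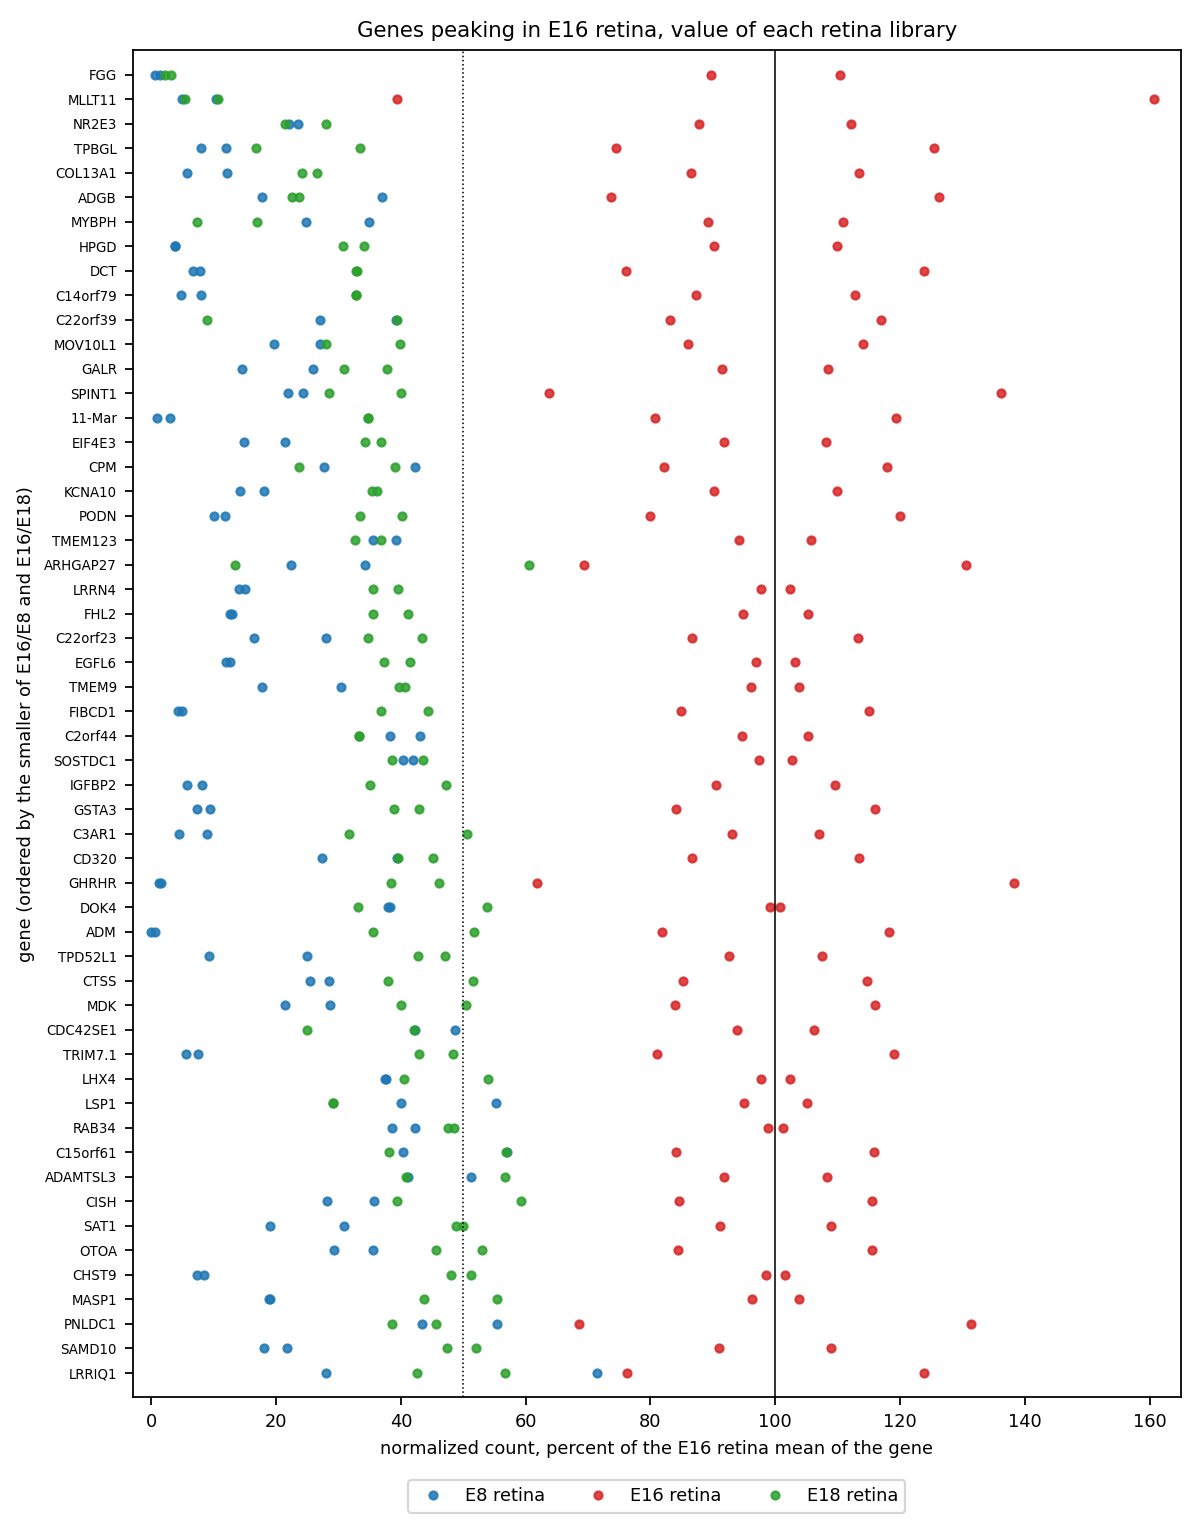
Each of the 54 genes plotted is a row, and each point is 1 retina library (E8, E16 or E18), plotted as a percent of the E16 mean of that gene (solid line at 100%, dotted line at 50%). The E16 points stand to the right of all others in each row, and E18 points mostly stand between the E8 and the E16 points.

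Several members lay close to the limits of the rule. Just inside the minimum level were MYBPH (E16 mean 103), CPM (103) and TRIM7.1 (105), and just outside were CTXN1 (99.1), ENPEP (97.8) and CD200R1A (89.5). LRRIQ1, PNLDC1 and C15orf61 were 2.01, 2.02 and 2.05 times their E8 mean, whereas C3orf55 (1.99), TMEM255B (1.96) and RPS29 (1.95) missed that limit. SAMD10, LRRIQ1 and CHST9 were 2.01, 2.01 and 2.02 times their E18 mean, and DMA (2.00, just under the limit), P2RX3 (1.97) and GAPDH (1.97) were left out. GAPDH, a glycolytic enzyme, thus had nearly the same profile, with 159641 and 188559 normalized counts at E8, 526159 and 578466 at E16 and 273354 and 288253 at E18. Membership also depended on single libraries, since 29 of the 56 genes met the rule however any 1 of the 6 retina libraries was left out. The genes described below are those taken by a rule on the size of the peak, on the level and on gene lists, or were chosen after their values were seen.

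The first group works in transcription. NR2E3 is a nuclear receptor of photoreceptors that in mammals represses cone genes in rods. It had 734 and 785 normalized counts in E8 retina, 3738 and 2924 in E16 retina and 712 and 932 in E18 retina. The E16 mean was 4.39 times that of E8 and 4.05 times that of E18, and the E8 libraries lay between the E18 libraries. LHX4, a LIM-homeodomain factor that marks developing photoreceptors and bipolar cells in mouse, was flatter. Its libraries had 1134 and 1139 at E8, 3097 and 2955 at E16 and 1227 and 1631 at E18, or 2.12 times the E18 mean at E16, and the E18 library of replicate 2 stood above 50% of the E16 mean. FHL2, a LIM-only cofactor, had 175 and 178 normalized counts at E8, 1313 and 1456 at E16 and 491 and 569 at E18. MLLT11, a small cofactor first found as a leukemia fusion partner, had 227 and 55.6 at E16, the widest gap between E16 replicates among the members (4.09-fold), against 7.03 and 14.7 at E8 and 15.04 and 7.57 at E18. In GRCg7b no annotated gene lies between MLLT11 and CDC42SE1, another member. How reads on overlapping genes were counted was not given in the sources used here, and whether reads of this pair were shared was not tested.

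Photoreceptor genes were read beside NR2E3 and LHX4. On a list of photoreceptor genes, none of them a member, 17 of 19 tested were called higher at E16 than at E8 (34.1% of all genes tested). Between E16 and E18, 7 were called higher (10.7% of all genes) and 1, RXRG, lower (7.87% of all genes). The median log2 difference of the list from E16 to E18 was 0.86, beside 0.02 over all genes. RXRG, a retinoid receptor of cones, had -0.74 (standard error in the fit 0.19, Benjamini-Hochberg adjusted p = 0.0317, limma). Of 119 tested transcription factors on a broader list, NR2E3 and LHX4 apart, 33 were called higher and 48 lower at E16 than at E8 (30.3% of all genes were lower), and then 10 higher and 11 lower at E18.

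**Figure D2:**
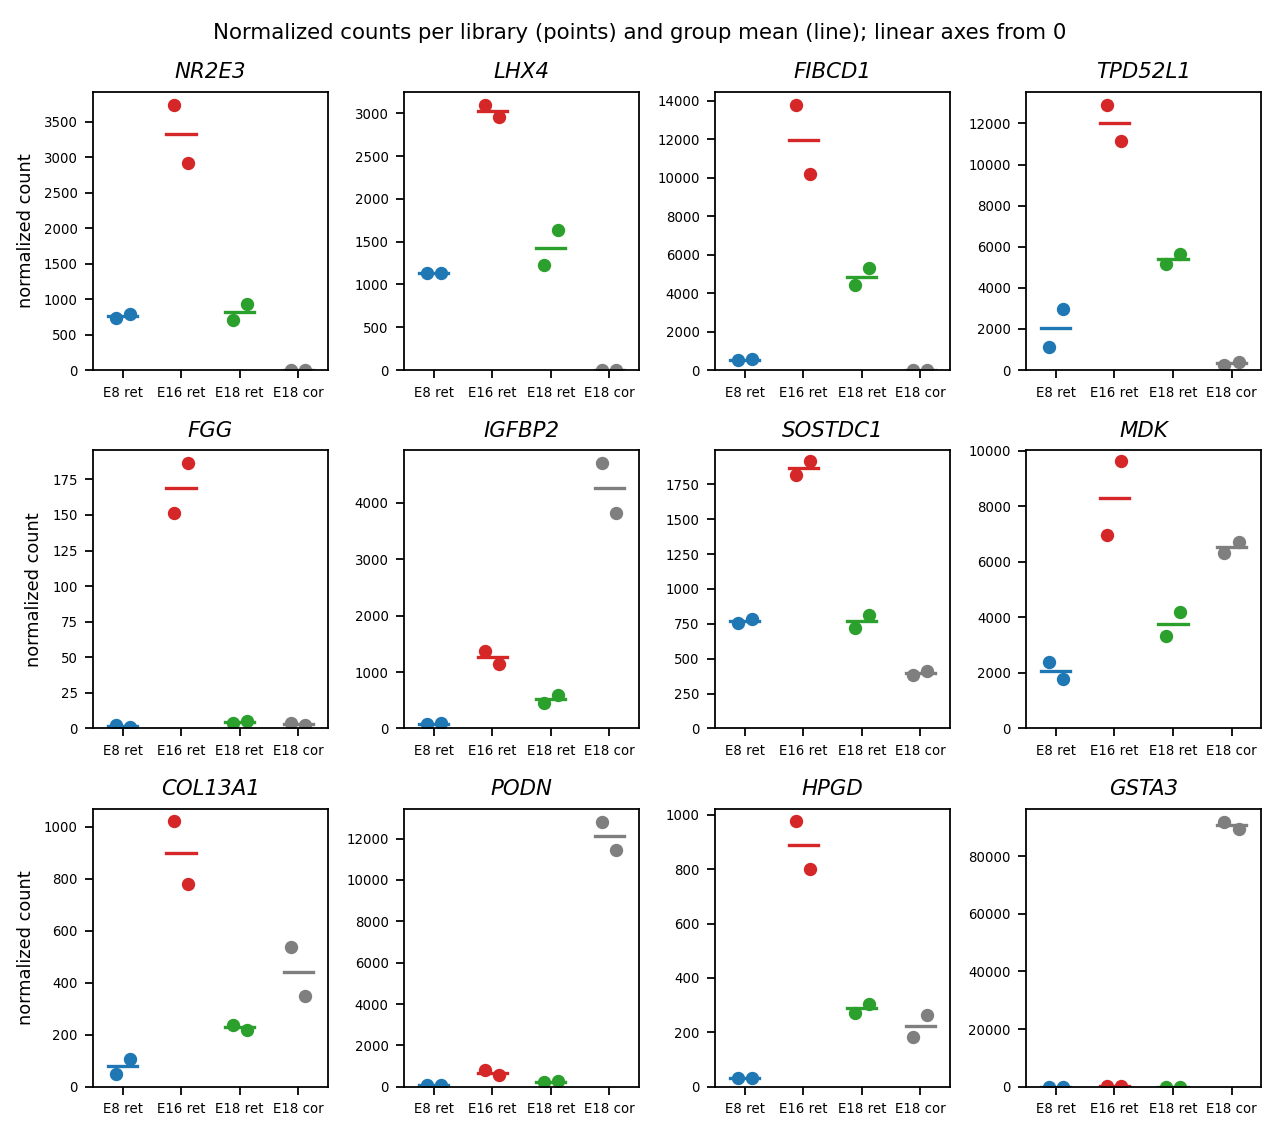
Normalized counts of 12 members in each of the 8 libraries (points) with the group mean (line), on linear axes from 0, for retina (ret) at E8, E16 and E18 and cornea (cor) at E18. NR2E3, LHX4, FIBCD1 and TPD52L1 are low or at 0 in cornea, and PODN and GSTA3 are far higher in cornea than in any retina library.

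Secreted signals formed the next group, with 5 members. SOSTDC1, a secreted antagonist of BMP and Wnt signalling, was similarly low on both sides of its peak, with 755 and 784 normalized counts at E8, 1821 and 1918 at E16 and 722 and 815 at E18. MDK encodes midkine, a heparin-binding growth factor of developing neural tissue, and had 2379 and 1782 at E8, 6972 and 9626 at E16 and 3315 and 4187 at E18. Its E18 libraries remained above both E8 libraries. IGFBP2, which binds insulin-like growth factors, went from 72.1 and 103 at E8 to 1381 and 1141 at E16 and was at 442 and 596 at E18. ADM, the precursor of the vasodilator peptide adrenomedullin, had 1 read in the E8 libraries together. Its ratio of E16 to E8, 301 from the reads, rests on that read and is very imprecise. Its E16 libraries had 133 and 92.3 normalized counts and its E18 libraries 40.1 and 58.3.

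Receptors and surface proteins numbered 7. FIBCD1, a membrane receptor with a fibrinogen-like domain that binds acetylated sugars, had 511 and 581 normalized counts at E8, 13768 and 10157 at E16 and 4403 and 5306 at E18. The E16 mean of 11962 ± 2553 (SD, n = 2) was 21.9 times the E8 mean, and E18 still had 8.89 times the E8 level. TPBGL, a leucine-rich repeat membrane protein, had 124 and 189 at E8, 1973 and 1172 at E16 and 263 and 526 at E18, with clear differences within each pair. LRRN4, another leucine-rich repeat protein, was tighter at 365 and 382 in E16 retina, against 52.7 and 55.9 at E8 and 148 and 133 at E18. Of receptors for peptides, the row GALR, matched through a synonym to the galanin receptor GALR1, had 45.1 and 25.5 at E8, 159.8 and 189.6 at E16 and 53.9 and 65.9 at E18. GAL, the gene of its ligand galanin, was below the minimum level but had the same order, with 7.62 and 5.88 at E8, 27.3 and 23.7 at E16 and 8.77 and 12.9 at E18. GHRHR, the receptor for growth hormone-releasing hormone, was hardly detected at E8 (7 reads in all) and had 252 and 113 at E16 and 70.2 and 84.0 at E18. CD320, the cellular receptor for transcobalamin-bound vitamin B12, had 171 and 119 at E8, 376 and 493 at E16 and 172 and 196 at E18. C3AR1, the receptor for the complement fragment C3a, had 9.96 and 4.90 at E8, 103 and 118 at E16 and 35.1 and 56.0 at E18. The groups of both ages beside E16 were close together for CD320 and far apart for GHRHR and FIBCD1.

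Matrix, clotting and protease genes were the largest group sorted by role, with 11 members. FGG, the gamma chain of fibrinogen, had the sharpest peak of all members. It had 2.34 and 0.98 normalized counts at E8, 151 and 186 at E16, 3.76 and 5.30 at E18 and 3.69 and 2.46 in cornea. The E16 libraries together held 372 reads, compared with 5 at E8 and 10 at E18. The ratio of E16 to E18 from these reads was 36.2, which rests on few E18 reads and on values that the rule used. The other chains did not have this profile, since FGA had at most 1.96 normalized counts in any retina library and FGB had 30.5 and 43.1 at E8, 35.7 and 25.3 at E16 and 26.3 and 33.3 at E18. COL13A1, a collagen that spans the cell membrane, had 51.0 and 109 at E8, 1022 and 779 at E16 and 239 and 218 at E18. Of the 73 other tested genes on a list of extracellular matrix genes, 35 were called higher (47.9%, beside 34.1% of all genes) and 19 lower (26.0%, beside 30.3%) at E16 than at E8. At E18, 10 were called higher (13.7%, beside 10.7%) and 1 lower (1.37%, beside 7.87%) than at E16. PODN, a small leucine-rich proteoglycan, had 69.1 and 81.3 at E8, 828 and 552 at E16 and 231 and 277 at E18, and EGFL6, a secreted matrix protein with EGF repeats, had 25.8 and 24.5 at E8, 199 and 212 at E16 and 85.2 and 76.5 at E18. CHST9, a sulfotransferase that modifies sugar chains, had 449.9 and 464 at E16 and 219 and 234 at E18, after 33.4 and 38.2 at E8. OTOA, known as an anchoring protein of the inner ear, had 91.4 and 75.5 at E8, 297 and 217 at E16 and 137 and 117 at E18. MASP1, a protease of the lectin branch of complement, had 48.6 and 49.0 at E8, 268 and 248 at E16 and 113 and 143 at E18. The E8 and E18 means of 3 further members lay within 1.5-fold of each other. The protease inhibitor SPINT1 had 27.5 and 30.4 at E8, 79.9 and 171 at E16 and 50.1 and 35.6 at E18, with E16 libraries 2.14-fold apart. The carboxypeptidase CPM had 43.4 and 28.4 at E8, 121 and 84.2 at E16 and 40.1 and 24.2 at E18. ADAMTSL3, an ADAMTS-like protein without protease activity, had 52.7 and 65.7 at E8, 139 and 118 at E16 and 72.7 and 52.2 at E18.

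CTSS, the lysosomal protease cathepsin S of antigen-presenting cells, had 41.0 and 46.1 normalized counts at E8, 138 and 185 at E16 and 61.4 and 83.3 at E18, and is the member that stands on a list of leukocyte markers. LSP1, a leukocyte actin-binding protein whose row matched LSP1P1 through a synonym, had 199 and 273 at E8, 520.3 and 471 at E16 and 144 and 144 at E18. LSP1 and C3AR1 are also known from such cells. Other leukocyte genes were read beside them. The list's 13 genes with a row, CTSS among them, had a summed level of 584 and 316 at E8, 1681 and 1757 at E16, and 1324 and 1315 at E18. Of its 11 other tested genes, 9 were called higher at E16 than at E8 (81.8%, beside 34.1% of all genes), with a median log2 difference of 4.00 beside 0.04 over all genes. From E16 to E18 the median was -0.45, and 1, the T cell gene CD3E, was called lower (9.09%, beside 7.87% of all genes). CD3E was low, with 10.5 and 4.90 normalized counts at E16 and 1.25 and 0.757 at E18, under 3 reads in each E18 retina library. The highest retina mean was at E16 in 8 of the 11, at E18 in TLR4 and P2RY12, and at E8 in PTPRC. The share over all genes was not computed, so nothing is read from this count. Among the 8, IRF8 was nearly flat between the later ages (324 and 315 at E16, 321 and 298 at E18). CSF1R, the receptor of macrophages and microglia, had 36.3 and 36.3 at E8, 629.6 and 563 at E16 and 461 and 409.6 at E18. P2RY12, a receptor of microglia, had 0 and 2.94 at E8, 20.0 and 22.9 at E16 and 37.6 and 23.5 at E18, and PTPRC, the CD45 phosphatase of leukocytes, had 122 and 62.7 at E8, 47.3 and 50.7 at E16 and 50.1 and 42.4 at E18. The part of these cells in the profiles of CTSS, LSP1 and C3AR1 was not tested.

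Enzymes of metabolism numbered 4. HPGD, which inactivates prostaglandins, had 33.4 and 33.3 normalized counts at E8, 975 and 801 at E16 and 273 and 303 at E18, an E16 mean 26.6 times that of E8. SAT1, the acetyltransferase that opens polyamine breakdown, had 964 and 1564 at E8, 4608 and 5509 at E16 and 2527 and 2471 at E18. GSTA3, a glutathione transferase, had 15.2 and 19.6 at E8, 177 and 243 at E16 and 90.2 and 81.8 at E18. DCT, dopachrome tautomerase of the melanin pathway, had 99.0 and 116 at E8, 1830.0 and 1125 at E16 and 486 and 485 at E18, and the E16 libraries differed from each other by more than the E18 level. Because the pigment epithelium had been peeled off, 15 other genes of a pigment epithelium and melanin list were read beside DCT. Of the 14 others tested, 7 were called higher at E16 than at E8 (50%, beside 34.1% of all genes). From E16 to E18, 4 were called higher (28.6%, beside 10.7%) and 0 lower (beside 7.87%). The highest retina mean was at E16 in 4 of them (BEST1, LRAT, MLANA and TTR), at E18 in 9 and at E8 in 1, TYR. BEST1, MLANA and TTR were low, with at most 21.0 normalized counts in any retina library. The share over all genes was not computed, so nothing is read from these counts. BEST1, a chloride channel of the pigment epithelium, had 0 and 3.92 normalized counts at E8, 21.0 and 9.80 at E16 and 2.51 and 8.33 at E18, and TTR, which carries thyroid hormone and retinol-binding protein, had 0 and 0 at E8, 11.6 and 15.5 at E16 and 5.01 and 8.33 at E18. RPE65, the isomerase of the visual cycle, had 20.5 and 23.5 at E8, 8.41 and 16.3 at E16 and 86.5 and 108 at E18, so that genes of the list did not share 1 profile. TYR, which catalyses the first step of melanin synthesis, had 15.8 and 22.5 at E8, 4.20 and 8.99 at E16 and 15.04 and 3.03 at E18, and PMEL was listed at 0 throughout. The list, with DCT included, summed to 9991 and 12254 at E8, 16708 and 15255 at E16, and 19953 and 18995 at E18, most of it SLC16A3, a lactate transporter. The part of pigment cells in the DCT profile was not tested.

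**Figure D3:**
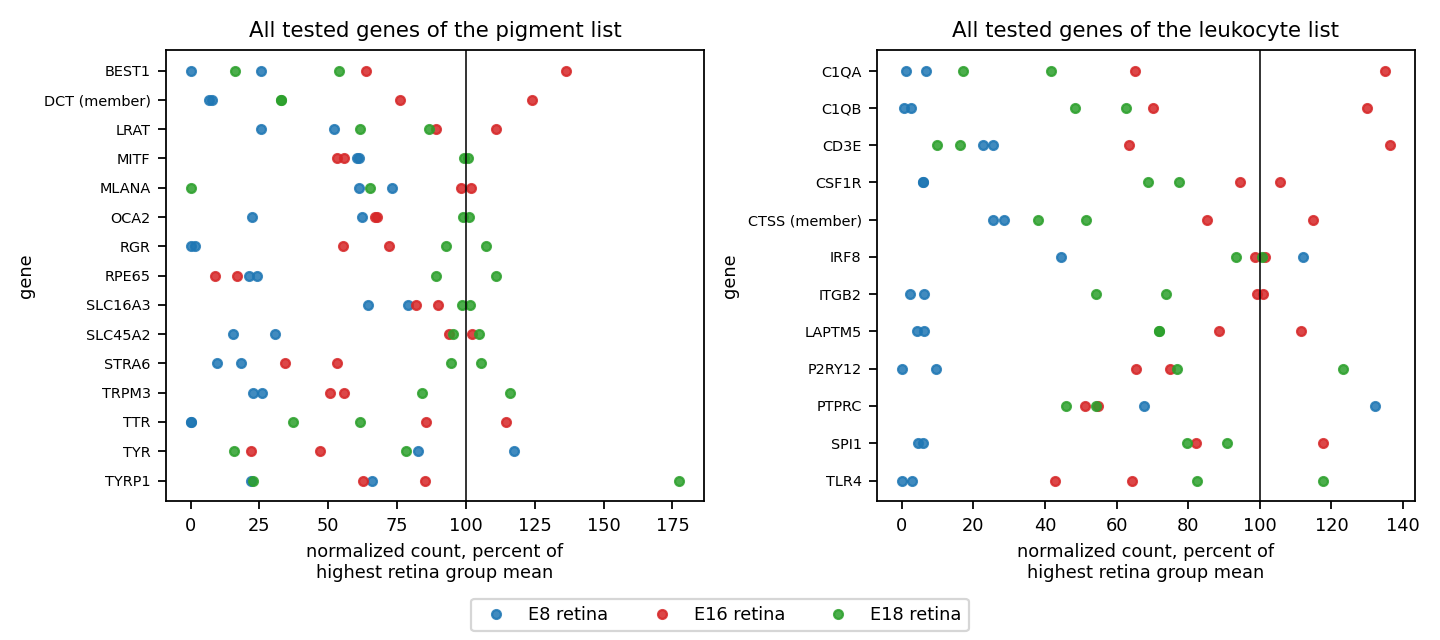
All tested genes of the pigment list (left) and the leukocyte list (right), with the members DCT and CTSS marked. Each point is 1 retina library, as a percent of the highest of the E8, E16 and E18 retina means of that gene (line at 100%). Besides the members the highest mean is at E16 in 4 of 14 pigment genes and 8 of 11 leukocyte genes. The share over all genes was not computed, so nothing is read from these counts.

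Proteins that signal inside the cell made up 7 members. CISH, a feedback inhibitor of cytokine signalling, had 226 and 287 normalized counts at E8, 927 and 679 at E16 and 316 and 475 at E18. DOK4, an adaptor of receptor tyrosine kinases, had 322 and 324 at E8, 856 and 842 at E16 and 281 and 457 at E18. Its E16 libraries were the closest pair among the members (1.02-fold), while its E18 libraries were apart. RAB34, a GTPase of cilium formation, had 141 and 155 at E8, 371 and 362 at E16 and 174 and 178 at E18. ARHGAP27, a GTPase-activating protein, had 48.0 and 31.4 at E8, 183 and 97.2 at E16 and 18.8 and 84.8 at E18, so that E18 replicate 2 came close to E16 replicate 2. CDC42SE1, an effector of CDC42, had 147 and 127 at E8, 321 and 284 at E16 and 75.2 and 127 at E18.

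Of 3 genes for RNA-binding proteins, EIF4E3, which binds the cap of messenger RNA, had 150.0 and 104 normalized counts at E8, 760.0 and 645 at E16 and 241 and 258 at E18. MOV10L1 and PNLDC1 act in the making of piRNAs in the germ line of mammals. MOV10L1 had 22.9 and 31.4 at E8, 99.9 and 132 at E16 and 46.4 and 32.6 at E18, and PNLDC1 had 83.8 and 65.7 at E8, 199 and 104 at E16 and 68.9 and 58.3 at E18. KCNA10, a voltage-gated potassium channel, had 37.5 and 29.4 at E8, 228 and 187 at E16 and 75.2 and 73.4 at E18. The membrane protein TMEM123 had 1210.5 and 1339.7 at E8, 3613 and 3218 at E16 and 1114 and 1258 at E18, and TMEM9 had 212 and 362 at E8, 1237 and 1146 at E16 and 472 and 484 at E18. In TMEM123 the E8 and E18 libraries overlapped, whereas in TMEM9 both E18 libraries were above both E8 libraries.

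The 12 remaining members have other or little described roles. TPD52L1, a coiled-coil protein of the tumor protein D52 family, had the highest E16 mean, with 1113 and 2995 normalized counts at E8, 12912 and 11127 at E16 and 5137 and 5666 at E18, and its E8 libraries were far apart. C2orf44, the fourth highest at E16, had 2692 and 2390.3 at E8, 5922 and 6581 at E16 and 2082 and 2085 at E18. ADGB, androglobin, a large globin-like protein known from the testis and from ciliated cells in mammals, had 261 and 124 at E8, 890.3 and 519.6 at E16 and 159 and 167 at E18. MYBPH, matched through a synonym to MYBPHL of the myosin-binding protein family, was the single member whose E8 mean was at least 2 times its E18 mean (35.7 and 25.5 against 7.52 and 17.4, with 91.4 and 114 at E16). SAMD10 had 144 and 172 at E8, 867 and 725 at E16 and 377 and 414 at E18. A row listed as 11-Mar, a calendar date in place of a gene symbol, had 9.37 and 30.4 at E8, 1187 and 803 at E16 and 346 and 346 at E18. C14orf79 had 5.27 and 8.82 at E8, 96.7 and 125 at E16 and 36.3 and 36.3 at E18. C22orf39 had 49.8 and 34.3 at E8, 148 and 105 at E16 and 11.3 and 49.97 at E18. The last 4 were close to a limit of the rule or low. TRIM7.1 had 5.86 and 7.84 at E8, 85.1 and 125 at E16 and 45.1 and 50.7 at E18, and C22orf23 had 29.9 and 17.6 at E8, 92.5 and 121 at E16 and 46.4 and 37.1 at E18. C15orf61 had 235 and 331 at E8, 674 and 489 at E16 and 222 and 331 at E18, and LRRIQ1 had 105 and 41.2 at E8, 182 and 112 at E16 and 62.6 and 83.3 at E18.

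The level to which the genes returned differed among them. In 38 members both E18 libraries were above both E8 libraries (67.9%, beside 43.6% of all genes tested), in 4 both were below (beside 40.2% of all genes), and in 14 the ages overlapped. The rule used these libraries, so nothing is read from these shares. Among the members that ended near their E8 mean were SOSTDC1, NR2E3, LRRIQ1 and C15orf61, with E18 means 0.999, 1.08, 0.999 and 0.976 times that of E8. The ratio of LRRIQ1 rests on E8 libraries that were far apart (105 and 41.2). At the other end, ADM, GHRHR, 11-Mar, FIBCD1 and HPGD had 168, 29.2, 17.4, 8.89 and 8.63 times their E8 mean, although E8 counts of ADM and GHRHR were very low. Between the E16 libraries, 10 members differed by more than 1.5-fold (17.9%), compared with 1.97% of the 9334 named rows with an E16 mean of at least 100. The median difference between the E16 libraries was 1.26-fold for members and 1.08-fold for those rows. The rule chose members on the E16 libraries and those rows were not matched for level, so this gap is not read as a result about the members.

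The cornea at E18 served as the reference tissue. Beside the E16 retina, both cornea libraries were higher in 17 members (30.4%, beside 45.1% of all genes tested), lower in 32 (57.1%, beside 40.9%), and overlapped with E16 in 7. The rule asked for high E16 libraries, so an excess of members below E16 is in part set by the choice. These shares are not read as a result about the members. For the test, the cornea was set against the retina of the same age. limma called 30 members higher in cornea (53.6%, beside 36.9% of all genes tested) and 17 lower (30.4%, beside 34.5%), and 9 were not called. The median log2 difference was 0.76 over the members and 0.06 over all genes. Since the rule asked for a low level in E18 retina, a share above the background on the cornea side is in part set by the choice and is not read as a result about the members. When libraries were scaled to their reads on genes, the median gene moved by -0.24 on the log2 scale, and 25 members were called higher and 19 lower.

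Among members higher in cornea were most of the matrix and protease group, of which limma called 10 of 11 higher (beside 36.9% of all genes). Of the 73 other tested genes on the extracellular matrix list, 48 were called higher and 19 lower (beside 36.9% and 34.5% of all genes). Role groups were assigned after the values were seen, and the rule asked for a low E18 retina level. The count of this group is therefore not read as a result. COL13A1, CHST9 and OTOA lost the call when libraries were scaled to their reads on genes. The exception in the group, FGG, had 4 reads in the cornea libraries and 10 in the E18 retina libraries. GSTA3 had 91872 and 89391 normalized counts in cornea, a log2 difference of 10.03 ± 0.21 SE. EGFL6 had 10738 and 13959 in cornea (7.23 ± 0.20 SE), PODN 12812 and 11423 (5.58 ± 0.22 SE), SPINT1 5067 and 4168 (6.73 ± 0.36 SE) and CPM 3533 and 3611 (6.79 ± 0.33 SE). The cornea mean of GSTA3 was 432 times the E16 retina mean, and those of EGFL6, SPINT1, CPM, PODN and CTSS were 60.2, 36.8, 34.8, 17.6 and 10.2 times that mean. Of the 5 secreted signals, 4 were called higher in cornea (beside 36.9% of all genes). IGFBP2 had 4702 and 3823 normalized counts in cornea (3.04 ± 0.23 SE). MDK in cornea (6309 and 6729) stood between the E18 and the E16 retina (0.81 ± 0.20 SE). SOSTDC1 was lower (382 and 412, -0.95 ± 0.13 SE). CTSS had 1634 and 1664 in cornea (4.51 ± 0.25 SE), and the leukocyte list, with CTSS included, summed to 4979 and 4797 there.

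Members lower in cornea included the transcription factors LHX4 and NR2E3. Of the 119 other tested genes on the transcription factor list, 77 were called lower and 20 higher (beside 34.5% and 36.9% of all genes). LHX4 had no read in either cornea library, which makes it at least 258-fold higher in E18 retina than the floor of 3 reads in the shallower cornea library. NR2E3 had 1 read in cornea, and its ratio of E18 retina to cornea was 1151 with a 95% counting interval from 206 to 45504. FIBCD1 had 12.9 and 28.3 normalized counts in cornea (-7.90 ± 0.31 SE), TPBGL 5.53 and 6.14 (-5.77 ± 0.40 SE), TPD52L1 269 and 407 (-4.02 ± 0.39 SE) and SAMD10 22.1 and 36.9 (-3.74 ± 0.28 SE). TPBGL had only 3 and 5 reads in the cornea libraries, and the row 11-Mar had 5 reads in cornea (-6.21 ± 0.48 SE). DCT was lower (29.5 and 93.4, -3.18 ± 0.47 SE), as were C2orf44 (-1.94 ± 0.14 SE) and ADGB (-2.85 ± 0.38 SE). All differences between cornea and E18 retina given so far with an SE had a Benjamini-Hochberg adjusted p of at most 0.00538 in limma. The rule asked for a low level in E18 retina, and the retina libraries it used also enter the pooled spread. The differences and p-values of single members in this comparison are thus not free of the choice. The members not called were EIF4E3, CD320, HPGD, LRRN4, C22orf23, PNLDC1, GALR, MLLT11 and FGG, with log2 differences from -1.52 to 0.71. For HPGD the difference was -0.38 ± 0.24 SE, which does not show that its levels were equal. COL13A1, called higher in cornea at an adjusted p of 0.0469 from limma, lost the call under 8 of 15 alternatives.

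**Figure D4:**
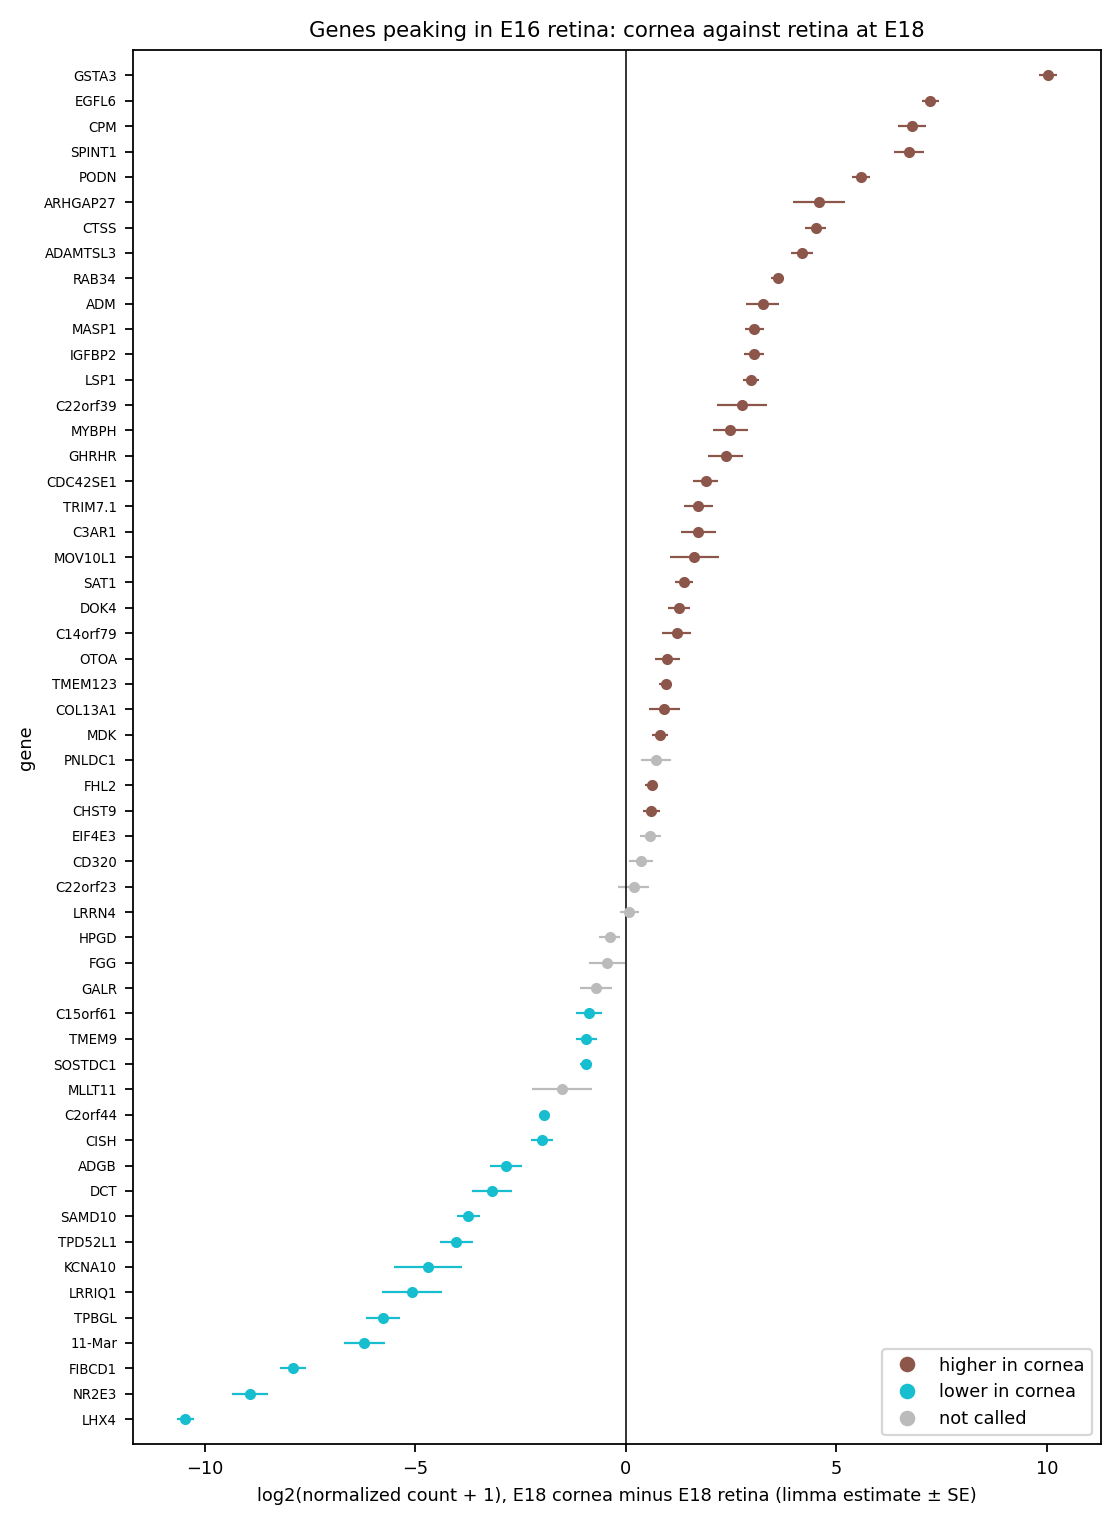
Difference between E18 cornea and E18 retina for 54 of the 56 members, as the limma estimate on log2(normalized count + 1) with its standard error, sorted, where values above 0 are higher in cornea. GSTA3, EGFL6, CPM, SPINT1 and PODN lie farthest on the cornea side and LHX4, NR2E3 and FIBCD1 farthest on the retina side.

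Through symbols and synonyms, 51 of the 56 members were matched to the GRCg7b annotation, which was used for names and gene order alone. Chromosome 1 held 10 of them (19.6%, beside 13.9% of the matched named rows with an E16 mean of at least 100). Chromosomes 25 and 26 held 3 each (5.88%, beside 0.926% and 1.63%), and chromosome Z held 0 (beside 4.82%). These counts are small and were not tested. The members on chromosome 25 are MLLT11, CDC42SE1 and CTSS, and 6 annotated genes separate CTSS from CDC42SE1. Whether reads of the neighbours MLLT11 and CDC42SE1 were shared was not tested.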

How the data were processed

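Polyadenylated RNA was sequenced in 8 stranded libraries, in 4 groups of 2. According to the methods and the submitters' processing notes, the authors aligned reads with STAR (2.5.1b) to galGal4, counted them per gene with featureCounts (1.5.0) and deposited counts divided by a DESeq2 (1.6.2) size factor, a normalized signal without length correction. The strand setting and the handling of overlapping genes were not given in the sources used here. In every library 100% of the deposited values were whole multiples of 1 read within 0.001, so reads were recovered. Differences were fitted with limma (3.58.1, R 4.3.3) on log2(normalized count + 1) over all libraries, for 13194 genes kept by filterByExpr (edgeR 4.0.16, minimum count 10), with Benjamini-Hochberg adjustment at 0.05. A log2 difference on this scale understates the change of low genes. SE is the standard error of the fit. Counting intervals are exact at 95%, and like the floor of 3 reads they cover counting error only. With 2 libraries a group, p-values set a difference against the spread between replicate libraries. For each gene this spread was pooled over the 4 groups and adjusted with the help of the other genes. It covers these libraries alone.

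The members and the gene lists were chosen with earlier results of these data known, and role groups were assigned from general knowledge after the values were seen. Genes named by rule were the 12 with the largest smaller ratio of the E16 mean over E8 and E18 (means + 1), the 12 with the highest E16 mean, the 5 with the highest cornea mean, those on a list, and the 3 on each side of a limit. edgeR's quasi-likelihood test and DESeq2 (1.42.0) on the recovered reads were alternatives. Values of 2 members are not reported here, and counts over the members include them.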

Additional observations from a re-analysis of the deposited data

How the results depend on the processing

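The number of members depended most on the rule itself. It was 254 at 1.5-fold, 11 at 3-fold and 37 with a minimum E16 mean of 200. Leaving out each retina library in turn gave 46 to 78 members, with 46 without E18 retina replicate 1 and 78 without E18 retina replicate 2. Scaling to reads on genes gave 70 members and TMM scaling 58, of which 56 and 55 were among the 56.

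For the cornea comparison, 47 members were called by limma, 48 by edgeR and 48 by DESeq2 on the recovered reads, and 41 to 45 when 1 library was left out (25 to 28 higher and 16 to 17 lower). Of the 47 called members, 39 kept the call in all 15 alternatives, 8 lost it in at least 1, and no called member changed direction. Some members that limma did not call gained a call. EIF4E3 was called higher in cornea by edgeR, by DESeq2 and under TMM scaling. HPGD and GALR were called lower when libraries were scaled to reads on genes. EIF4E3 and HPGD also depended on single cornea libraries. The difference of EIF4E3 went from 0.58 to 0.80 without cornea replicate 1, and that of HPGD from -0.38 to -0.65 without cornea replicate 2. LRRN4 and C22orf23, which were not called, changed sign to -0.16 and -0.053 when scaled to reads on genes, an alternative chosen after seeing the data. Leaving out 1 library gave -0.064 (without cornea replicate 1) to 0.23 for LRRN4 and -0.096 (without cornea replicate 2) to 0.47 for C22orf23, and the cause was not tested. With the replicate number as a block, 46 members were called, 29 higher and 17 lower. The paper lists every replicate 1 sample as chicken 1 and every replicate 2 sample as chicken 2, also across ages. Deviations of libraries with the same number correlated at -0.05 to 0.05 across genes, and the main fit did not pair the libraries. These correlations cannot show whether E18 retina and cornea of the same number came from the same embryo. Depth limits members with few reads in at least 1 group, such as FGG, ADM, GHRHR, LRRIQ1 and the row 11-Mar. Others include MLLT11, KCNA10, TPBGL, NR2E3 and LHX4 in cornea, and C14orf79 and TRIM7.1 at E8.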
